A study of Mus musculus with 38 samples.

Results

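The collagen genes are the 40 gene names on the array that consist of Col, a number, the letter a and a number, out of 29411 gene names in all, and they are read by 73 probes. They were divided into 11 fibrillar collagens, 8 basement membrane collagens (the type IV chains with Col15a1 and Col18a1) and 21 other collagens. The 38 arrays, with 1 colour each, hold RNA from the brown fat of C57BL/6J mice. From weaning at 3 to 4 weeks of age, mice were kept on a low fat control diet (LFC, 10% of calories from fat), on a high fat high sucrose diet (HFC, 60% of calories from fat), or on that same high fat diet with the plant formulation Kal-1 at 5, 20 or 75 µg (HF5, HF20 and HF75), so that all the Kal-1 mice also ate the high fat diet. LFC and HFC have 10 arrays each, at Day 6, Day 10, Day 14 and Weeks 0, 3, 6, 9, 12, 15 and 18, and each Kal-1 dose has 6 arrays, at Weeks 3 to 18. Each group has 1 array per labelled time point, so its time points serve as replicates and the p values cover the spread between time points. No genetic change separates the groups, and the labels do not say how many of the 5 mice killed per group and time are in an array. The series' own design text speaks of 3 biological replicates per group, which does not match the 1 array per group and time point in the labels, so what each value and n stands for in animals is not known.

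Collagens are built from 3 chains that wind around each other, and each chain repeats the unit Gly-X-Y, since only glycine is small enough for the centre of the helix. Fibrillar collagens (types I, II, III, V, XI, XXIV and XXVII) pack into the fibres of connective tissue, where type I and type III carry tension and type V sets fibre width. Type IV chains form the sheet of basement membranes, which surround every adipocyte and underlie every capillary, and collagens XV and XVIII sit in the same zone and carry heparan or chondroitin sulfate. Type VI forms beaded filaments between the fibres and is abundant in adipose tissue, while others bind to fibres (IX, XII, XIV, XVI), span membranes (XIII, XVII, XXIII, XXV) or form lattices (VIII). In brown fat these proteins come mainly from stromal fibroblasts, from vessel cells and, for basement membrane, from the adipocytes as well. In bulk tissue, fewer cells of a type and less RNA per cell cannot be told apart.

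The repeat of the triple helix can be read in a few of the 60-base probes themselves. Of the 73 collagen probes, 3 hold a glycine codon (GGN) every 9 bases in an open frame, and they are shown because they detect the helix coding part of a chain; the glycine codons are in capitals. None of these 3 is the brightest probe of its gene, and they followed it with r = 0.54 (Col11a2), 0.24 (Col5a1) and -0.22 (Col5a3) over the arrays.

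Col11a2 probe: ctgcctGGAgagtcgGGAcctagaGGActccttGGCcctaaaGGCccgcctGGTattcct

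Col5a1 probe: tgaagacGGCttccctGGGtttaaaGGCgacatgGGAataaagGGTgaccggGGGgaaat

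Col5a3 probe: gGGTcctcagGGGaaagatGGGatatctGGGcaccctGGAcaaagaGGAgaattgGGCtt

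The probe behind the result in which the Kal-1 doses differed is that of Col8a1, a short chain collagen of vessel walls and other sheets, and it is printed for that reason without capitals.

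Col8a1 probe: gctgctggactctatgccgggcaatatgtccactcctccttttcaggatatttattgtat

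Col4a1 and Col4a2, the main chains of type IV, lie head to head on mouse chromosome 8 in RefSeq (GRCm38.p6). The start sites used here, 11312826 for Col4a1 and 11312805 for Col4a2, lie 21 bases apart. The gene record of Col4a1 reaches to 11312889, so the 2 records overlap. Their windows of 250 bases before to 50 bases after the start share 78 bases. The windows are shown because the pair varied together across arrays (below), with the shared bases in capitals, for Col4a1 on the minus strand at chr8:11312777-11313076 and for Col4a2 on the plus strand at chr8:11312555-11312854.

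Col4a1 promoter: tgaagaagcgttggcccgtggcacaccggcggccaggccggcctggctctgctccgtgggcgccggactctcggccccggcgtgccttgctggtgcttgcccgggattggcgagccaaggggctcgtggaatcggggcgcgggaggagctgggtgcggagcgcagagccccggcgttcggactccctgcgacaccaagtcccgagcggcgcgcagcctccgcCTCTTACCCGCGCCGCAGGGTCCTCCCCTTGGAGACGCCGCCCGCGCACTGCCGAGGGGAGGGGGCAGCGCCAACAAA

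Col4a2 promoter: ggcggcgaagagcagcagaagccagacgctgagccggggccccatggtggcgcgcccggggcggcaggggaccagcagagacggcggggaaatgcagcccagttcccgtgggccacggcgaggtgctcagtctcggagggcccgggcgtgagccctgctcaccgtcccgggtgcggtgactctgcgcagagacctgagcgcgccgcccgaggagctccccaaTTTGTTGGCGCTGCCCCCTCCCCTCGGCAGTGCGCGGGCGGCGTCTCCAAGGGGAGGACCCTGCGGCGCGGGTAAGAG

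A few motifs were searched on both strands, and a match describes the letters only. The CCAAT box was in both windows and in 37.4% of all promoters of that length, against 37.5% (12 of 32) of the collagen promoters held by RefSeq here. The GC box GGGCGG was in both windows, in 35.7% of all promoters and in 59.4% (19 of 32) of those of collagens. Neither window held TATAAA, which 13.6% of all promoters and 15.6% (5 of 32) of those of collagens did.

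Values are log2 processed signal minus the 75th percentile of the array, so 0 is the level of a bright spot of that array and 1 unit is a doubling. They describe how 1 probe moved between arrays and are not compared between probes. The 75th percentile itself ran from 35.1 to 1209 intensity units, and between 36.6% and 78.8% of spots were well above background. It was over 500 units, a boundary chosen after the arrays were seen, on 4 of 10 LFC arrays, 2 of 10 HFC arrays, 0 of 6 HF5 arrays, 4 of 6 HF20 arrays and 1 of 6 HF75 arrays. Ucp1, Cidea, Cox7a1 and Cox8b, which mark brown adipocytes, were well above background on all 38 arrays. The HF75 array of Week 3 stood apart, with a mean of -2.11 over 9 brown adipocyte markers against 1.42 to 4.90 on the other arrays, and of 2.78 over 10 fibroblast markers against -0.96 to 1.75. The HFC array of Week 12 had the highest share of spots above background. The HFC array of Day 10 had 1079 spots with the outlier flag of the scanner, against 19 to 73 on the other arrays.

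Of the 40 collagens, 15 were well above background on all 38 arrays (6 fibrillar, 5 basement membrane and 4 other), 11 on 30 to 37 arrays, 10 on 6 to 29 arrays and 4 on fewer than 6. The last 4, the cartilage collagens Col9a1 (5 arrays) and Col10a1 (3 arrays) with Col20a1 (3 arrays) and Col28a1 (4 arrays), were not tested. This left 36 collagens, all 11 fibrillar, all 8 basement membrane and 17 other, among 21625 genes tested. For 36 of the 40, the accession of the chosen probe is a RefSeq transcript of the same symbol. The outlier flag of the scanner removed Col8a1 on the HFC array of Day 10, Col5a2 on the HF75 array of Week 3 and Col13a1 on the HFC array of Week 18. Col1a2 and Col3a1 were saturated on 1 array each.

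The first comparison asked which collagens differed between HFC and LFC over the 10 time points. No collagen passed the adjusted threshold of 0.05, as for all genes (0%). At an unadjusted p under 0.05, Col4a2 and Col9a3 were higher in HFC, 2 of 36, where 4.57% of all genes were higher, and 0 collagens were lower, where 2.24% of all genes were lower. The classes stood on different sides of 0, with a median difference of -0.20 for the fibrillar collagens (4 of 11 above 0), 0.36 for basement membrane (6 of 8) and 0.24 for the others (12 of 17), beside 0.05 for all genes. The fibrillar sign rested on the choice of probe and on 1 time point, since the median was 0.16 with the mean of all probes of a gene and 0.0073 without Week 0, and the sign of the others on the scaling, since it was -0.06 with quantile normalization. The basement membrane median stayed between 0.06 (array brightness as a covariate) and 0.58 (without Week 18).

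**Figure D1:**
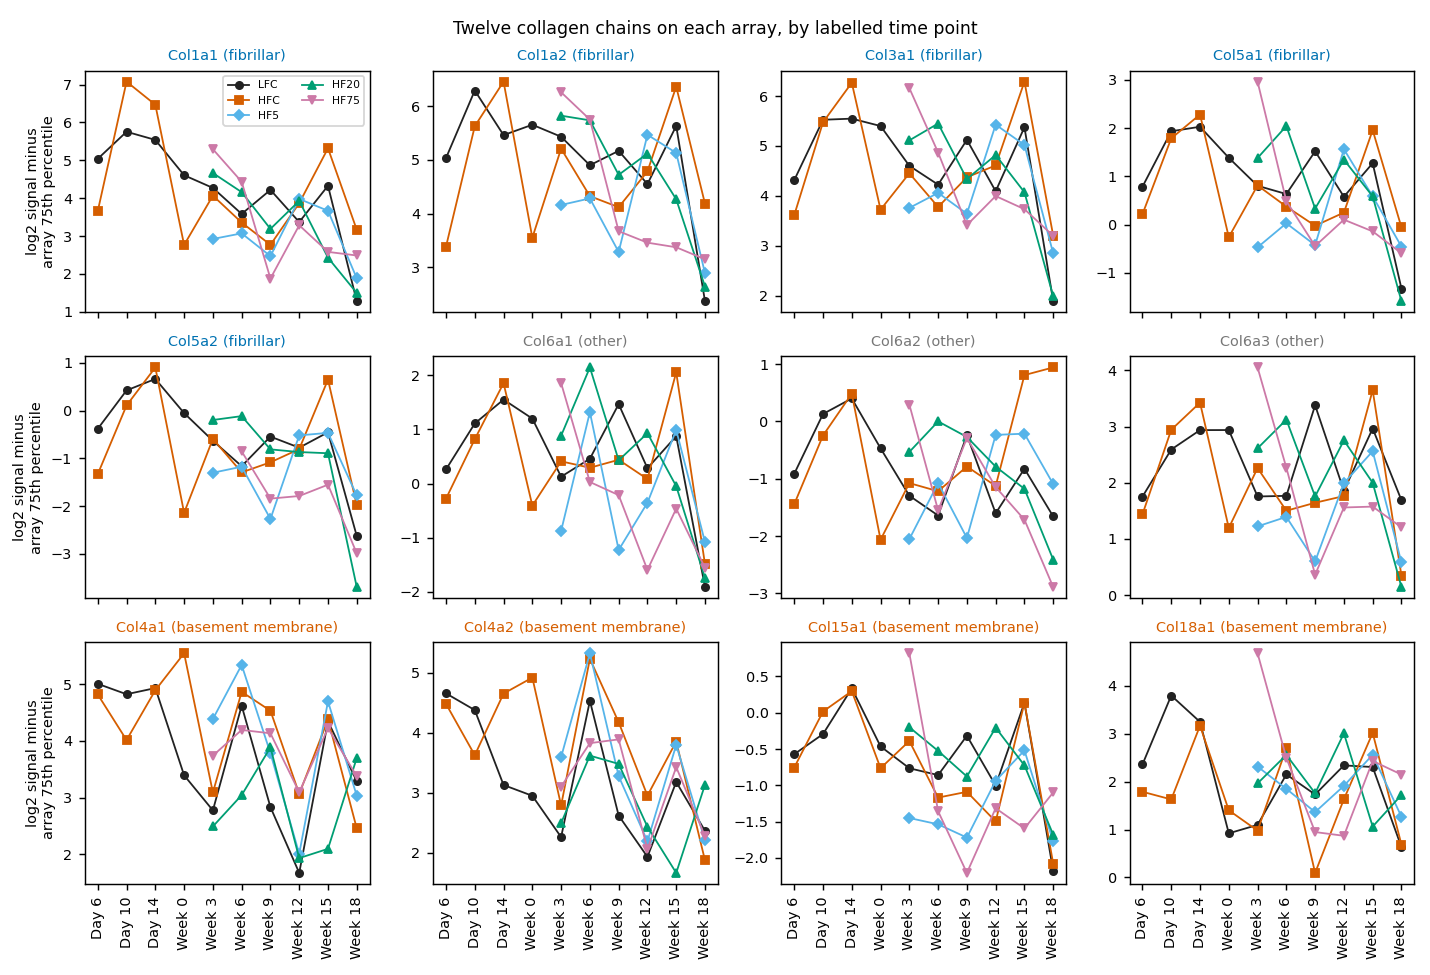
Log2 signal minus the array 75th percentile (y axis) at each labelled time point (x axis) for 12 collagen chains, with 1 point per array, lines joining the arrays of a group, and colours for LFC, HFC, HF5, HF20 and HF75. The fibrillar and type VI panels resemble each other. The fibrillar panels and Col6a1 have low LFC values at Week 18 (Col1a1 1.28). Col6a2 (-1.66) and Col6a3 (1.69) lie there beside other LFC values (-1.64 at Week 6 and 1.75 at Day 6). The Col4a1 and Col4a2 panels resemble each other with another course.

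Type I collagen is the heterotrimer of Col1a1 and Col1a2. Col1a1 ran from 1.28 to 5.75 in LFC (median 4.30, n = 10) and from 2.77 to 7.08 in HFC (median 3.76, n = 10). The groups overlapped between 2.77 and 5.75, and the difference was 0.05 (SE 0.38, adjusted p = 0.966). Col1a2 ran from 2.36 to 6.29 in LFC (median 5.30) and from 3.38 to 6.46 in HFC (median 4.55), a difference of -0.25 (SE 0.36, adjusted p = 0.800). HFC was higher for Col1a1 at 5 of 10 time points and for Col1a2 at 4 of 10. The Col1a1 value of 7.08 came from the HFC array of Day 10, which had the most outlier flags. At Day 10, HFC minus LFC was 1.32 for Col1a1 and -0.67 for Col1a2. Without Day 10 the Col1a1 difference was -0.089.

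Type III collagen, the homotrimer of Col3a1, ran from 1.89 to 5.55 in LFC (median 4.86) and from 3.20 to 6.29 in HFC (median 4.41), and differed by -0.03 (SE 0.28, adjusted p = 0.973). Of the type V chains, Col5a1 differed by -0.23 (SE 0.28, adjusted p = 0.766) and Col5a2 by -0.20 (SE 0.28, adjusted p = 0.786). None of these 5 chains of the interstitial fibre differed beyond the spread between time points. The helix probes of Col5a1 and Col5a3, well above background on 31 and 24 arrays, gave mean differences of 0.55 and 0.77. The main probes, well above background on all 38 arrays, gave -0.23 and -0.46. The lowest fibrillar difference was that of Col27a1, a fibrillar chain known from cartilage, at -0.96 (SE 0.54, adjusted p = 0.652), and the highest that of Col11a2 at 0.56 (SE 0.34, adjusted p = 0.652).

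Col4a1 and Col4a2 form the type IV network that is common to basement membranes. Col4a2 ran from 1.93 to 4.66 in LFC (median 3.04) and from 1.87 to 5.23 in HFC (median 4.01), and was higher in HFC at 7 of 10 time points. The groups overlapped, and the difference was 0.66 (SE 0.28, 1.58-fold, adjusted p = 0.652). Col4a1 ran from 1.67 to 5.01 in LFC (median 3.87) and from 2.45 to 5.55 in HFC (median 4.46), a difference of 0.40 (SE 0.31, adjusted p = 0.674), with HFC above LFC at 6 of 10. The second probes of Col4a1 and Col4a2 gave mean differences of 0.37 and 0.69 and followed the first with r = 0.94 and r = 0.92 over the arrays. With array brightness as a covariate the Col4a2 difference was 0.42 (SE 0.29).

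The rarer type IV chains belong to specialised membranes such as those of the kidney. Col4a4 ran from -2.12 to 0.35 in LFC (median -0.86) and from -1.53 to 1.504 in HFC (median 0.24), and was higher at 8 of 10 time points (0.78, SE 0.36, adjusted p = 0.652). Col4a3 was well above background on 7 of 38 arrays only. The remaining 2 members, which release the fragments restin and endostatin, pointed the other way: Col15a1 differed by -0.13 (SE 0.17, adjusted p = 0.770) and Col18a1 by -0.35 (SE 0.29, adjusted p = 0.687). The second Col18a1 probe gave -0.40 and followed the first with r = 0.95, while the second Col15a1 probe, well above background on 16 arrays, gave 0.57 and hardly followed its first (r = 0.21).

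Of the type VI chains, Col6a1 differed by -0.16 (SE 0.25, adjusted p = 0.811), Col6a2 by 0.24 (SE 0.35, adjusted p = 0.802) and Col6a3 by -0.35 (SE 0.29, adjusted p = 0.687). They thus lay on both sides of 0, within their errors. Col9a3, a chain of the cartilage collagen IX, exceeded background clearly on only 3 of the 10 LFC and 4 of the 10 HFC arrays, and its difference of 0.96 (SE 0.44, adjusted p = 0.652) rested partly on the HFC array of Week 12, where HFC was 4.41 above LFC. Without that array it was 0.58 (SE 0.31).

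The second comparison asked whether HFC minus LFC changed with days on the diet, counted as 14 days plus 7 per week. No collagen passed the adjusted threshold, as for all genes (0%). Without adjustment, at 0.05, 10 of 36 collagens had a rising difference, where 13.2% of all genes did, and 0 a falling one, where 2.03% of all genes did. All 11 fibrillar slopes were above 0, with a median of 0.084 log2 per 7 days, beside -0.00074 and 49.5% above 0 for all genes. Collagens share the same arrays and several varied together (below). Counts of signs, here and in the other comparisons, are therefore not counts of separate observations. Of the 11, 10 were above 0 with quantile normalization and 9 with normexp background correction. For basement membrane the median slope was 0.012 (4 of 8 above 0) and for the others 0.077 (14 of 17), the latter 0.0099 with quantile normalization. No gene of the other lists passed the adjusted threshold here. At an unadjusted p under 0.05 the difference rose for 3 of 4 cartilage and bone genes, Acan (0.15) and Comp (0.21) among them. It also rose for 2 of 11 fibril-associated proteoglycans and matrix proteins, Fmod (0.20) and Bgn (0.11). The same held for 2 of 9 brown adipocyte markers, Elovl3 (0.28) and Ucp1 (0.098), for 1 of 7 mural markers, Cnn1 (0.19), and for 0 of 10 fibroblast markers. The part of these cell type markers in the fibrillar slopes was not tested.

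**Figure D2:**
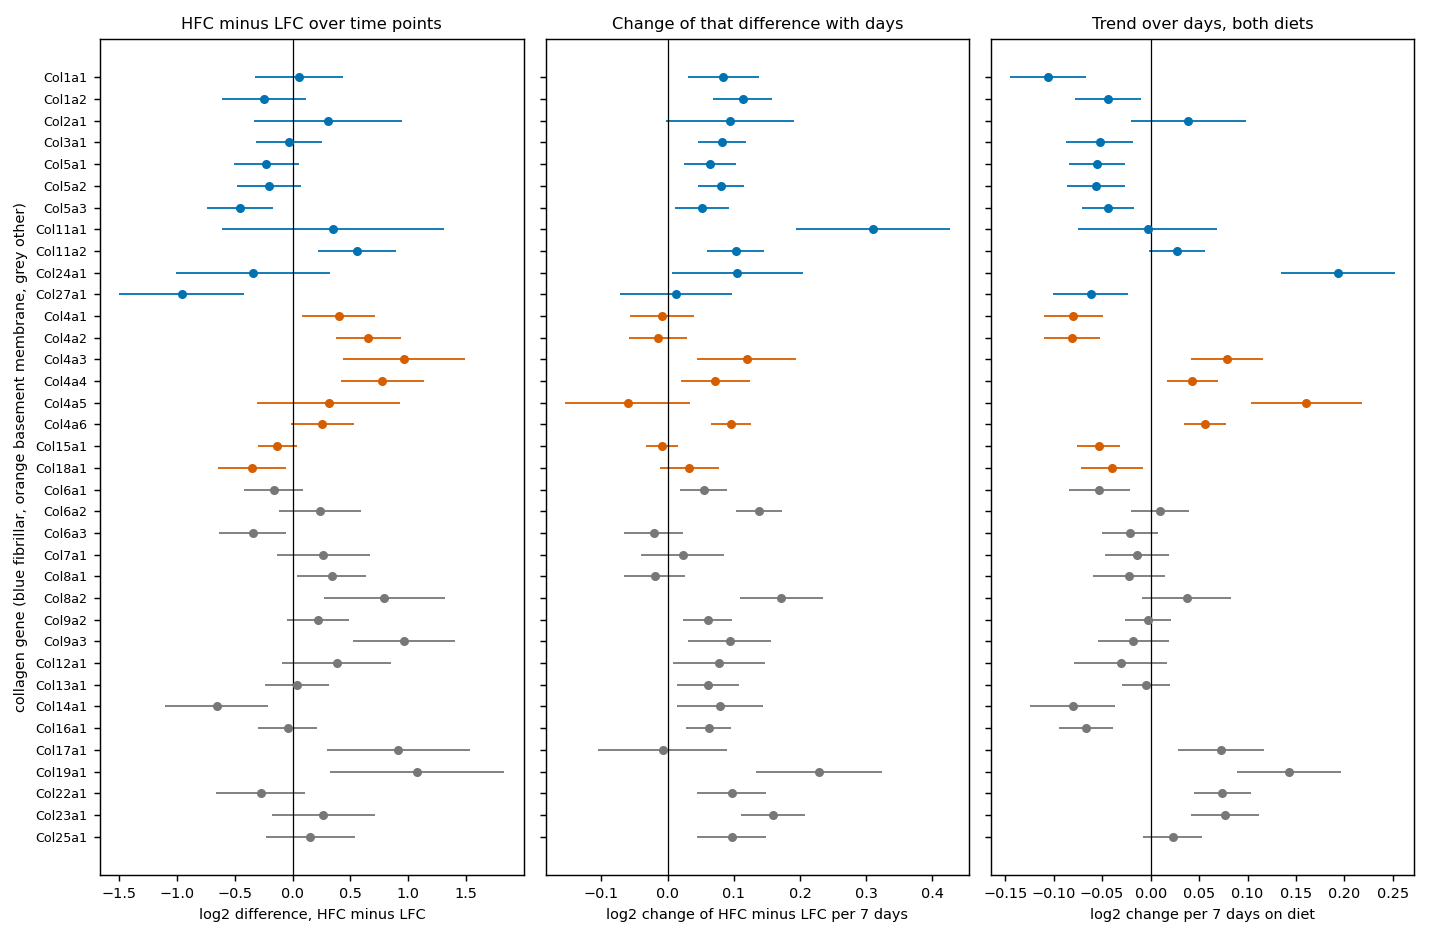
Estimate with its standard error for each of the 36 tested collagens (y axis, fibrillar blue, basement membrane orange, other grey), for HFC minus LFC in log2 units (left), for the change of that difference per 7 days on the diet (middle) and for the trend per 7 days over both diets (right). In the middle panel all 11 fibrillar points lie right of 0, while on the left 4 of 11 do.

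The slopes correspond to a fibrillar difference that was below 0 early and above 0 late. The median fibrillar difference was -0.70 at Day 6, -0.15 at Day 10 and 0.25 at Day 14. It was -1.84 at Week 0, which the study counts as the same day as Day 14, then -0.20, -0.26 and -1.05 at Weeks 3, 6 and 9, and 0.50, 0.73 and 1.27 at Weeks 12, 15 and 18. The first 2 weeks, Weeks 3 to 9 and Weeks 12 to 18 thus had class medians of -0.61, -0.45 and 0.91 for fibrillar collagens and of 0.33, 0.41 and 0.33 for basement membrane. The other collagens had -0.34, -0.19 and 1.003. At Week 9 the LFC and HFC arrays were scanned on different days, with 75th percentiles of 1023 and 48.3 units. Only the HFC file of that pair had passed through a spreadsheet. Diet, scan day, brightness and file handling therefore cannot be told apart in the Week 9 difference.

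The Week 18 value includes an LFC array that was low for fibrillar chains: Col1a1 was 1.28 there against 3.37 to 5.75 on the other 9 LFC arrays. On the 2 HFC arrays of day 14, Col1a1 was 6.47 (Day 14) and 2.77 (Week 0), so that these arrays of the same diet and day differed by more than the diets did at any time point (1.89 at most). The number of fibrillar chains with a slope at an unadjusted p under 0.05, 5 in all, was 1 without Week 0 or without Week 18, 2 without Day 6 or Week 15, 3 without Week 3, 6 or 12, and 6 without Day 14. It was 1 without the time point block and 7 with brightness as a covariate. Of all genes, 15.2% had such a slope, and 11.5% (without Week 18) to 16.5% (without Week 15) with a time point left out. The share was 10.2% without the block and 16.2% with brightness. A count of 1 of 11 is thus near the share over all genes.

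**Figure D3:**
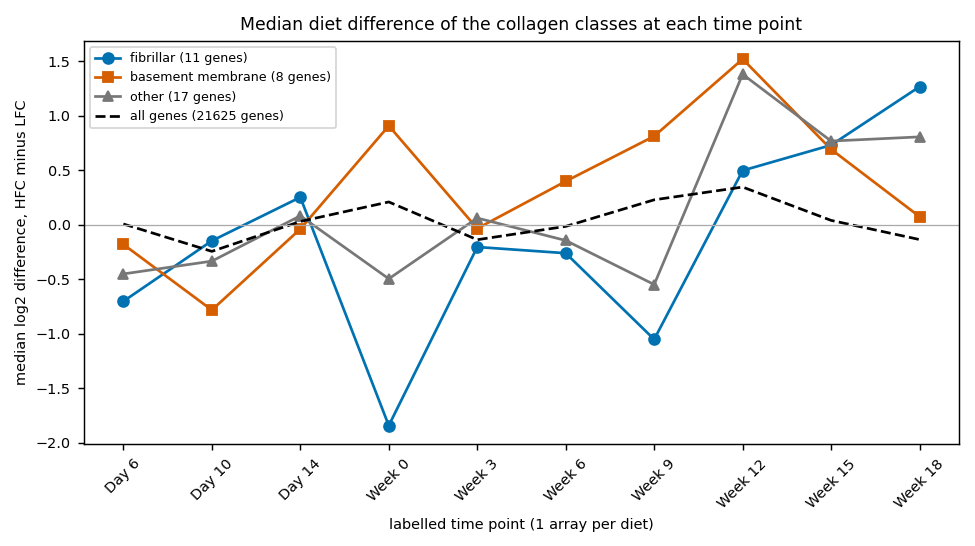
Median HFC minus LFC (log2, y axis) of the 11 fibrillar, 8 basement membrane and 17 other collagens and of all 21625 genes tested (dashed) at each labelled time point (x axis), from 1 array per diet. The fibrillar median runs from -1.84 at Week 0 to 1.27 at Week 18, and that of all genes stays between -0.24 and 0.35.

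The 3 collagens with the smallest p in this comparison were Col6a2 (0.14 per 7 days, SE 0.035, adjusted p = 0.107), the membrane collagen Col23a1 (0.16, SE 0.049, adjusted p = 0.148) and Col4a6 (0.096, SE 0.030, adjusted p = 0.155). For Col6a2 the LFC arrays of Weeks 15 and 18 were at -0.83 and -1.66 and the HFC arrays at 0.81 and 0.94. The partner chains did not share this slope alike, with 0.055 (SE 0.036) for Col6a1 and -0.021 (SE 0.045) for Col6a3. Col23a1 was well above background on 21 of 38 arrays.

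The third comparison asked how collagens moved with days over both diets. Each scan day held arrays of a single time point, though the arrays of Weeks 6 and 9 were not all scanned on the same day. The mice also aged over the course. Days on diet, age and scan day therefore cannot be told apart in this trend. No collagen passed the adjusted threshold, where 1.41% of all genes did. Before adjustment, at p under 0.05, 7 of 36 collagens rose, where 14.5% of all genes did, and 5 fell, where 6.52% of all genes did. The 3 smallest p values were those of Col24a1 (0.19 per 7 days, SE 0.059, adjusted p = 0.0818), a minor fibrillar chain known from bone, of Col4a2 (-0.081, SE 0.029, adjusted p = 0.116) and of Col4a5 (0.16, SE 0.057, adjusted p = 0.118). Type IV chains pointed in opposite directions: Col4a1 had a slope of -0.080 (SE 0.030) like Col4a2, and Col4a3 and Col4a6 had slopes of 0.079 (SE 0.037) and 0.056 (SE 0.022) like Col4a5.

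Among fibrillar collagens the median slope was -0.044 (3 of 11 above 0). Col1a1 had -0.11 (SE 0.039, adjusted p = 0.131), Col1a2 -0.044 (SE 0.034, adjusted p = 0.484), Col3a1 -0.053 (SE 0.034, adjusted p = 0.400), Col5a1 -0.055 (SE 0.029, adjusted p = 0.281) and Col5a2 -0.056 (SE 0.030, adjusted p = 0.289). Type VI and the proteoglycan collagens had -0.053 (Col6a1, SE 0.032, adjusted p = 0.358), 0.0092 (Col6a2, SE 0.030, adjusted p = 0.886), -0.021 (Col6a3, SE 0.029, adjusted p = 0.713), -0.054 (Col15a1, SE 0.022, adjusted p = 0.163) and -0.040 (Col18a1, SE 0.032, adjusted p = 0.502). The fibrillar median was -0.011 without Week 18 and -0.078 without Week 15. With normexp background correction Col1a1, Col4a1 and Col4a2 passed the adjusted threshold, where 3.38% of all genes did. Over all genes the calls of this trend went from 304 to 2 with array brightness as a covariate and to 2 with scan day as a random block.

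For Weeks 3 to 18, where the doses were also measured, HFC minus LFC was above 0 for 29 of 36 collagens (80.6%, beside 53.5% of all genes), and for 25 and 26 of 36 with quantile normalization and normexp. In these weeks 3 of 6 LFC arrays and 1 of 6 HFC arrays were over 500 units. The median over all genes moved with the filter on dim probes. It was 0.06 here, 0.46 with no filter and -0.18 for genes well above background on every array. The part of brightness in the count was not tested. No collagen passed the adjusted threshold, where 0.00925% of all genes did. Before adjustment (p under 0.05), 4 of 36 were higher, where 9.84% of all genes were, and 0 lower, where 4.07% of all genes were. The 3 smallest p values were those of Col9a3 (1.64, SE 0.42), Col4a4 (1.01, SE 0.38) and Col4a3 (1.35, SE 0.55), each with an adjusted p = 0.352. In LFC and HFC, 1 and 2 of 6 arrays measured Col9a3 well above background, and 2 and 1 measured Col4a3, so both describe signals near background. Without the HFC array of Week 12 the 3 differences were 1.26, 0.92 and 1.04, and 27 of 36 collagens were above 0. With brightness as a covariate Col4a4 was at 0.35 (SE 0.29) and Col4a3 at 0.77 (SE 0.56).

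The main chains of both networks overlapped among all 5 groups in these weeks (n = 6 each). Col1a1 ran from 1.28 to 4.33 in LFC (median 3.901), from 2.77 to 5.32 in HFC (median 3.61), from 1.88 to 3.98 in HF5 (median 2.997), from 1.497 to 4.66 in HF20 (median 3.56) and from 1.88 to 5.29 in HF75 (median 2.93). Col4a1 ran from 1.67 to 4.62 in LFC (median 3.06), from 2.45 to 4.87 in HFC (median 3.74), from 2.004 to 5.34 in HF5 (median 4.09), from 1.93 to 3.89 in HF20 (median 2.76) and from 3.09 to 4.23 in HF75 (median 3.94). Col1a1 differed from HFC most in HF5 (-0.76, SE 0.47, adjusted p = 0.814), and Col4a1 in HF20 (-0.88, SE 0.40, adjusted p = 0.138), and neither passed the threshold.

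Each Kal-1 dose was then set against HFC over the same 6 time points. These 3 comparisons and the preceding one share the HFC arrays, so high HFC values enter all of them. At Week 6 the HF20 and HF75 arrays were scanned on another day than those of LFC, HFC and HF5. At Week 9 the LFC array was scanned on another day than the other groups. For HF5, 0 collagens passed the adjusted threshold, as for all genes (0%). Counted at an unadjusted p under 0.05, 1 of 36 was higher, where 3.46% of all genes were, and 2 lower, where 2.05% of all genes were. HF5 minus HFC was below 0 for 31 of 36 collagens, beside 51.3% of all genes above 0, and for 26 and 28 of 36 with quantile normalization and normexp. The 31 include Col9a3, Col22a1, Col23a1 and Col25a1, which were well above background on 0 of 6 HF5 arrays. The median over the 36 collagens was below 0 at 6 of 6 time points, from -0.88 (Week 15) to -0.29 (Week 6), and by class it was -0.40 for fibrillar, -0.19 for basement membrane and -0.51 for other collagens.

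Col13a1, a collagen that spans the cell membrane at adhesion sites, had the smallest p at HF5. It ran from -2.92 to -0.41 in HFC (median -1.63, n = 5), from -3.42 to -1.89 in HF5 (median -2.47, n = 6) and from -3.39 to -1.82 in HF75 (median -2.93, n = 6). The difference was -0.98 (SE 0.36, adjusted p = 0.814) for HF5 and -1.11 (SE 0.36, adjusted p = 0.530) for HF75, with the missing HFC array of Week 18 left out of the fit for this gene. HF5 was lower at 5 of 5 time points with both arrays. Without the HFC array of Week 12 the 2 differences were -0.68 and -0.81. Col4a4 was next at HF5 (-0.92, SE 0.38, adjusted p = 0.814), lower at 6 of 6 time points.

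For HF20, 0 collagens passed the adjusted threshold, as for all genes (0%). At an unadjusted p under 0.05, 0 of 36 were higher, where 13.4% of all genes were, and 8 of 36 lower, where 19.4% of all genes were. The 3 smallest p values were those of the cartilage collagen chains Col2a1 (-2.31, SE 0.71) and Col11a1 (-2.66, SE 0.89) and of Col4a6 (-1.16, SE 0.37), each with an adjusted p = 0.121. Col2a1 was at -2.24 to 1.39 in HFC (median -0.24) and at -4.77 to -0.22 in HF20 (median -2.71), lower at 6 of 6 time points. The second Col2a1 probe, well above background on 35 arrays, had means of -1.78 in HFC and -3.08 in HF20. It hardly followed the first (r = 0.12). Col11a1 exceeded background clearly on 4 of 6 HFC and on 1 of 6 HF20 arrays. The defining cartilage gene Matn1 was well above background on 0 of 38 arrays, Sp7 on 7, Comp on 16, Sox9 on 32 and Acan on 33. Of the 4 genes tested in the cartilage and bone list, 2 were lower in HF20 at an unadjusted p under 0.05, Acan (-2.03, SE 0.66, adjusted p = 0.121) and Sp7 (-1.19, SE 0.40, adjusted p = 0.121), and the list had a median of -1.15. The mean of this list had r = -0.64 with log2 brightness over the 38 arrays. In these weeks 4 of 6 HF20 arrays and 1 of 6 HFC arrays were over 500 units. The part of the cartilage and bone genes in the Col2a1 and Col11a1 differences was not tested.

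The basement membrane median of HF20 minus HFC was -1.001 (6 of 8 below 0), against -0.18 for all genes, and -0.50 with brightness as a covariate. Col4a3 was well above background on 0 of 6 HF20 arrays and 1 of 6 HFC arrays, so its difference there is one between signals near background. The 6 endothelial markers moved the same way, with a median difference of -1.50 and 4 of 6 lower at an unadjusted p under 0.05. Array brightness went the other way and was higher in HF20. It was over 500 units on 4 of 6 HF20 arrays and 1 of 6 HFC arrays in these weeks. The part of the endothelial markers was not tested. Without Week 3, 7 collagens passed the adjusted threshold (Col2a1, Col4a3, Col4a4, Col4a6, Col8a2, Col11a1 and Col22a1), where 15.5% of all genes did. Of these, Col4a3, Col8a2, Col11a1 and Col22a1 were well above background on only 7, 10, 22 and 10 of the 38 arrays.

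For HF75, 0 collagens passed the adjusted threshold, as for all genes (0%). Taken without adjustment at 0.05, 1 of 36 was higher, where 4.95% of all genes were, and 2 lower, where 4.31% of all genes were. The 3 smallest p values were those of Col13a1 (above), Col8a1 (1.27, SE 0.47, adjusted p = 0.530) and Col5a2 (-0.88, SE 0.37, adjusted p = 0.530). Col5a2 ran from -1.98 to 0.65 in HFC (median -0.94, n = 6) and from -2.99 to -0.85 in HF75 (median -1.79, n = 5), where the Week 3 value is missing and left out. With normexp its difference was 0.029. The fibrillar median was -0.39 (10 of 11 below 0), -0.64 without the HF75 array of Week 3, -0.029 without Week 15 and -0.014 with normexp.

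In order of dose, HFC, HF5, HF20 and HF75, 0 collagens passed the adjusted threshold, as for all genes (0%). At an unadjusted p under 0.05, 0 of 36 rose, where 0.971% of all genes did, and 0 fell, where 2.98% of all genes did. The smallest p values were those of Col13a1 (-0.28 per step, SE 0.13), Col5a2 (-0.24, SE 0.13) and Col18a1 (0.24, SE 0.16), each with an adjusted p = 0.966.

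The last comparison asked whether the 3 doses differed from each other. Of the 36 collagens, 1 passed the adjusted threshold of the moderated F test, where 13.7% of all genes did. At an unadjusted p under 0.05 there were 7, where 37.3% of all genes were. The collagen was Col8a1 (adjusted p = 0.0353), and its values at Weeks 3, 6, 9, 12, 15 and 18 were 4.76, 3.98, 3.27, 3.97, 3.07 and 3.52 in HF5. In HF20 they were 1.63, 1.90, 3.73, 1.41, 1.15 and 3.55, and in HF75 4.61, 4.17, 3.62, 3.76, 3.99 and 4.11. The HF20 arrays of Weeks 3, 6, 12 and 15 were below every HF5 and HF75 array, and those of Weeks 9 and 18 lay within their range.

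The means of Col8a1 were 3.76 ± 0.61 in HF5, 2.23 ± 1.12 in HF20 and 4.04 ± 0.35 in HF75 (SD, n = 6 each), beside 2.78 ± 0.73 in HFC and 2.61 ± 1.05 in LFC over the same weeks. HF20 minus HF5 was -1.54 (SE 0.47) and HF75 minus HF5 0.28 (SE 0.47). The order was therefore not that of the doses. The second Col8a1 probe, well above background on 37 arrays, followed the first (r = 0.89) and had means of -0.85, -2.66 and -0.35 in HF5, HF20 and HF75. On slides that held a pair of doses, HF20 minus HF5 was -3.13 at Week 3 and -1.92 at Week 15, and HF75 minus HF20 was 0.56 at Week 18.

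Array brightness moved with this result. The 4 HF20 arrays with low Col8a1 (1.15 to 1.90) are the 4 with a 75th percentile over 500 units, and the 2 dimmer HF20 arrays were at 3.55 and 3.73. Over all groups, Col8a1 had a median of 1.72 on the 10 arrays over 500 units and 3.62 on the 27 others that measured it, and its correlation with log2 brightness was -0.51 (n = 37). The exception was the bright HF75 array of Week 3, at 4.61. With brightness as a covariate the Col8a1 adjusted p was 0.458, and the count over all genes went from 2972 to 0.

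The markers of endothelial cells moved with it too. All 6 of 6 endothelial markers were well above background on all arrays, and their mean was 1.18, 1.24, 0.62 and 0.81 on the HF20 arrays of Weeks 3, 6, 12 and 15 and 3.79 and 4.44 on those of Weeks 9 and 18. In HF5 it was between 3.56 and 4.70, and in HF75 between 3.41 and 4.46. Over the arrays the endothelial mean had r = 0.86 with Col8a1 (n = 37), 0.66 with the mean of Col4a1 and Col4a2 (n = 38) and -0.69 with log2 brightness (n = 38). White adipocyte markers had r = -0.75 with Col8a1, and were at 2.46 to 4.76 in HF20 against 1.91 to 3.50 in HF5 and 1.09 to 2.93 in HF75. The part of vessel content in the Col8a1 result was not tested. Without the HF75 array of Week 3 the adjusted p was 0.0665, and it was over 0.05 without Week 3, 6, 12 or 15 (up to 0.183).

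**Figure D4:**
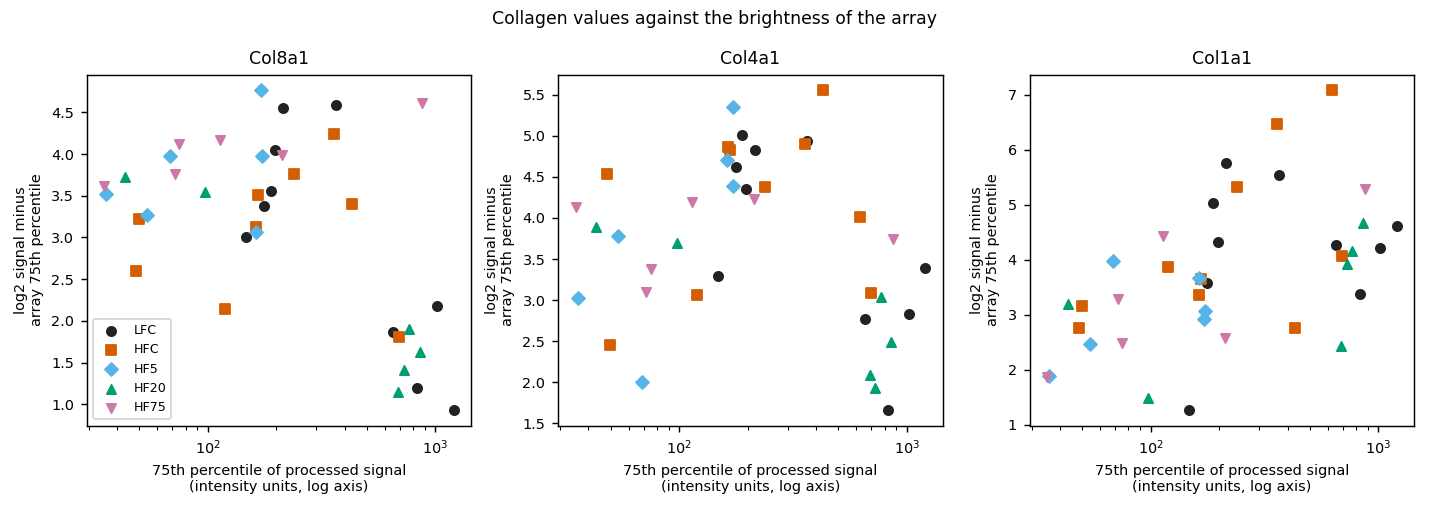
Log2 signal minus the array 75th percentile (y axis) of Col8a1, Col4a1 and Col1a1 on each array against that array's 75th percentile in intensity units (x axis, log scale), with 1 point per array and colours and symbols for the 5 groups. Right of 500 units Col8a1 lies between 0.94 and 2.18 except for the HF75 array of Week 3 at 4.61.

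Across the 38 arrays the collagens fell into sets that varied together, which the classes did not fully follow. Among Col1a1, Col1a2, Col3a1, Col5a1, Col5a2, Col6a1, Col6a2 and Col6a3, the 28 pairs had Pearson r from 0.57 to 0.94 with a median of 0.86, where the 630 pairs of tested collagens had a median of 0.11. The closest pair was Col3a1 with Col5a1 (r = 0.94). Col14a1, which binds to fibres, had r = 0.87 with Col1a1, and Col15a1 had r = 0.87 with Col6a3, although it belongs to basement membranes. The points share array brightness, with which Col1a1 had r = 0.51, Col1a2 0.53, Col3a1 0.51 and Col6a3 0.68, where all genes had a median of -0.18.

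Col4a1 and Col4a2 had r = 0.89 with each other and -0.03 to 0.35 with the 8 chains above. This is the pair whose start sites, as used here, lie 21 bases apart. The other head to head pairs of type IV had r = 0.33 (Col4a3 and Col4a4, chromosome 1) and 0.29 (Col4a5 and Col4a6, chromosome X), with Col4a3 near background. Of the neighbours that are not head to head pairs of type IV, Col3a1 and Col5a2 on chromosome 1 had r = 0.93 (n = 37) and Col6a1 and Col6a2 on chromosome 10 had r = 0.64. Col4a5 and the fibrillar Col24a1, which lie on different chromosomes, had r = 0.86.

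**Figure D5:**
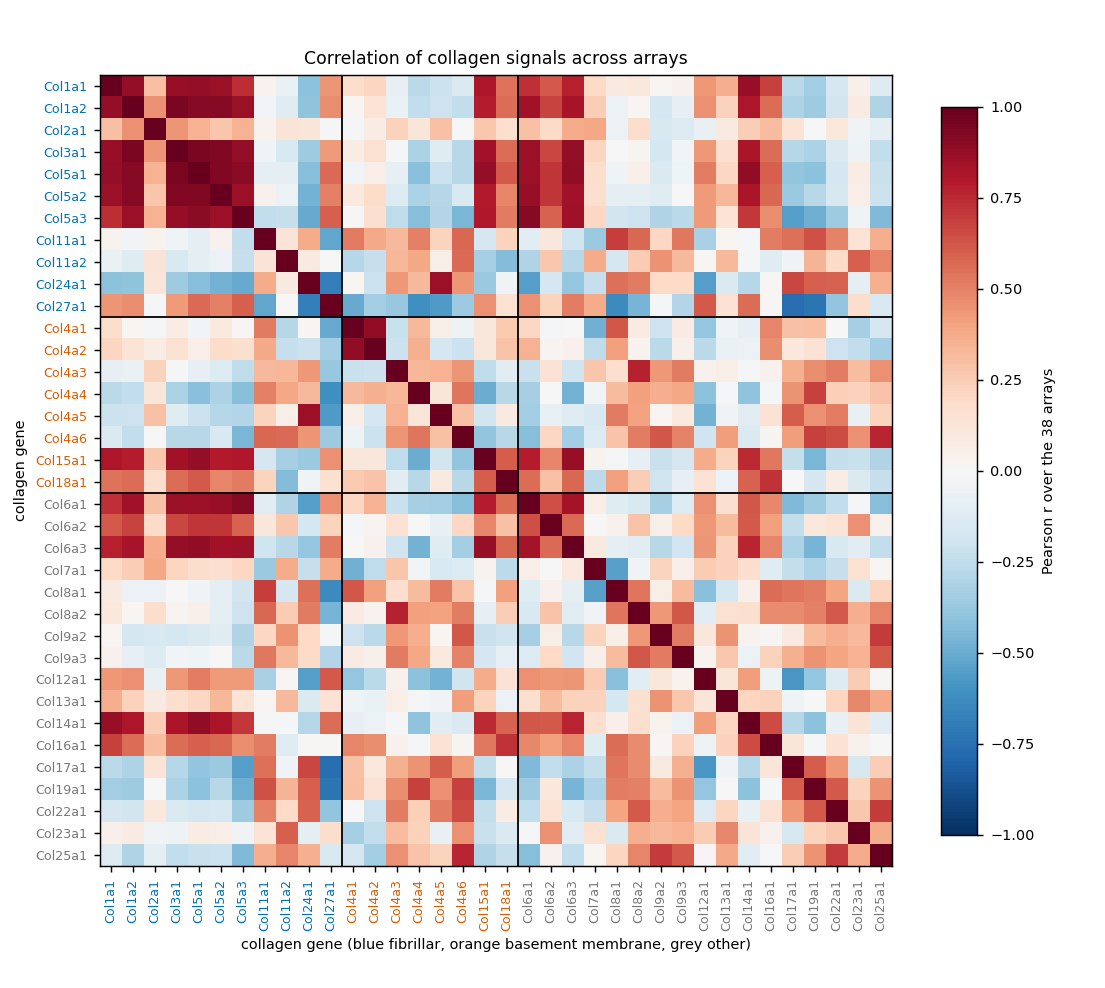
Pearson r (colour, from -1 in blue to 1 in red) between each pair of the 36 tested collagens over the 38 arrays (37 for pairs with a missing value), ordered as fibrillar, basement membrane and other, with black lines between classes. The red block at the top left holds Col1a1 to Col5a3 except Col2a1 (r = 0.30 with Col1a1) and recurs at Col6a1 to Col6a3, Col14a1 and Col15a1, and Col4a1 with Col4a2 forms a block of its own (r = 0.89).

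The mean of Col1a1, Col1a2, Col3a1, Col5a1 and Col5a2 was set beside the means of other gene lists over the 38 arrays. It had r = 0.81 with the list of fibril-associated proteoglycans and matrix proteins. This list holds decorin and its relatives and other matrix genes such as Sparc, Fn1, Postn and Fbn1. The fibrillar mean had r = 0.76 with the enzymes that trim and crosslink fibrils (such as Lox and Bmp1) and 0.73 with fibroblast markers. With the chaperones and hydroxylases that all collagens need in the secretory pathway it had r = 0.12. The mean of Col4a1 and Col4a2 had r = 0.82 with laminins, nidogens and other basement membrane partners and 0.68 with the chaperones and hydroxylases. With macrophage, mural cell, skeletal muscle and brown adipocyte markers the fibrillar mean had r = 0.48, 0.48, 0.03 and -0.27. With white adipocyte markers, and with cartilage and bone markers, it had r = 0.14 and -0.07. For the lists of breakdown, receptors and TGF-beta described next, r was 0.09, 0.09 and 0.19.

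In these lists no gene passed the adjusted threshold in HFC against LFC, whether over 10 time points or over Weeks 3 to 18. For the trend over days, where 1.41% of all genes passed, 1 of 13 genes of collagen breakdown passed, the stromelysin Mmp3 (0.15 per 7 days, SE 0.034, adjusted p = 0.0431), and so did 1 of 10 basement membrane partners, the proteoglycan Agrn (-0.055, SE 0.013, adjusted p = 0.0454). Of the 14 genes of the TGF-beta pathway, a main inducer of fibrillar collagen, Smad3 passed (-0.097, SE 0.019, adjusted p = 0.0298). In the same comparison 0 of 16 genes of assembly, 0 of 10 of processing and 0 of 6 collagen receptors passed. Among the doses, 2 of 10 basement membrane partners (Lama5 and Hspg2) and 1 of 6 receptors (the collagen binding integrin chain Itga1) passed, beside 4 of 6 endothelial markers and 13.7% of all genes. The TGF-beta ligand gene Tgfb2 passed as well, as did Cd34 of the fibroblast list, Tagln of the mural list, Ppargc1a of the brown and Lep and Plin1 of the white adipocyte list. In the skeletal muscle, macrophage and cartilage lists 0 genes passed, and for the trend over days the mural marker Rgs5 was the only cell type marker that did (-0.076, SE 0.015, adjusted p = 0.0308).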

How the data were processed

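Total RNA of brown adipose tissue was labelled with Cy3 and hybridised to custom 1-colour Agilent mouse arrays. Per the file headers, spot intensity came from Feature Extraction 10.5.1.1 (the submitters' processing notes name 9.1), and the deposited processed signal has background removed and no scaling across arrays. A deposited file of the authors' own log2 ratios to LFC was left aside. Of the scanner files, 4 of Week 9 had passed through a spreadsheet and were joined by probe; 0 sample columns were unmapped. Depth has no meaning here, and the number of arrays and the signal over background limit the precision.

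The log2 processed signal minus the 75th percentile of each array was used, for the probe of highest mean per gene name, and a gene was tested if 6 or more of the 38 arrays had it well above background. Fits used limma 3.58.1 in R 4.3.3 (lmFit and eBayes). Tests were two-sided, and adjusted p values are those of limma after Benjamini-Hochberg correction across the 21625 genes, read against 0.05. The LFC and HFC comparisons used 20 arrays and a time point term (diet for the trend over days), the doses the 30 arrays of Weeks 3 to 18, and the dose order 24. Week 0 is day 14. The steps were tested on simulated data. The text names 12 chains set by hand, the collagens that passed or the 3 of smallest p in each comparison, and, as extremes or partners of these, others chosen after their values were seen. The members, lists and tests were chosen with earlier results of these data known. Other lists covered white adipocytes, mural cells, skeletal muscle, macrophages, and cartilage and bone. Alternatives changed the scaling, background correction (normexp, offset 50), filter, probe rule, covariates, blocks, weights and time points. Arrays of 1 slide (32 slides) and scan day (12 days) were tried as random blocks. Sequences come from the array files and RefSeq.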

Additional observations from a re-analysis of the deposited data

Results flagged for a closer look

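In 10 of the 115 groups of arrays tested, the highest or lowest array lay far from the rest of its group, where chance gives about 5%. The flags are of single genes on the same arrays, and several collagens varied together. The 10 are therefore not separate observations, and the 5% is no measure for them. The LFC array of Week 18 was the lowest LFC array for 13 of the 36 tested collagens and lay far from the rest for 6 of them: Col1a1 (1.28), Col1a2 (2.36), Col3a1 (1.89), Col5a1 (-1.32), Col6a1 (-1.91) and Col15a1 (-2.18). The next LFC value was 3.37 for Col1a1, 4.55 for Col1a2 and 4.09 for Col3a1. On that array the mean of the fibroblast markers was -0.25, against a median of 0.34 on the others, and that of the brown adipocyte markers 1.46 against 3.09; their part was not tested.

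The HF75 array of Week 3 was the highest of its group for Col5a1 (2.96) and Col15a1 (0.82), and it is the array with the brown adipocyte mean of -2.11. The HF20 array of Week 18 was the lowest for Col5a2 (-3.70), where the spot was not well above background, and the HF20 array of Week 6 the highest for Col23a1 (-2.11). Col8a1 differed among the 3 doses in the test of the difference itself (adjusted p = 0.0353).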

How the results depend on the processing

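Precision is limited by 1 array per group and time point and by signal near background for 14 of the 40 collagens, those well above it on fewer than 30 arrays. The 47 results on single genes were recomputed 1089 times: 1033 kept direction and side of the threshold, 9 lost and 12 gained the call, and 35 turned direction. Causes were not tested except where fewer genes or arrays entered. HFC against LFC (both spans), HF5, HF75 and the dose order gave 0 collagens under each alternative, the methods' t-test after Benjamini-Hochberg included; unadjusted, that test gave 0 of 36 for HFC against LFC over 10 time points (4.08% of all genes), 2 over Weeks 3 to 18 (5.03%), and 2, 4 and 2 for HF5, HF20 and HF75 (4.86%, 15.1% and 7.28%).

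Differences among the doses gave 0 collagens with normexp, no filter, brightness or muscle markers as a covariate, or without the HF75 array of Week 3; 6 (19.3% of all genes called) with low signals raised to the lowest well above background; 3 (14.1%) with the mean of all probes; 2 (34.1%) with a filter on every array; 4 (29.6%) with slide as a block; 5 (31.4%) with array weights; and 0 to 5 (0% to 25.1%) with a time point left out. HF20 gave 5 (21.1%) with array weights and 0 to 7 (15.5% at 7, without Week 3) with a time point left out. The trend over days gave 1 (4.24%) with quantile normalization, 3 (3.38%) with normexp, 2 (6.65%) with array weights and 0 to 1 with a time point left out. The product of diet and day gave 2 (3.98%) with array weights (Col6a2 and Col23a1).

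Time points paired the arrays in part: deviations of LFC and HFC at the same time point correlated at -0.24 to 0.67, over 0.1 at 7 of 10 time points. Without the time point block, which the trend over days does not have, the counts stayed at 0, and at 1 (Col8a1, adjusted p = 0.0429) for the doses, and no single gene lost or gained a call.

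HFC minus LFC turned for Col1a1 (-0.28 with normexp, -0.086 with array weights, -0.15 to 0.26 leaving out a time point), Col3a1 (0.15 with quantile normalization, 0.22 with the mean of probes, 0.045 with brightness, 0.019 with Day 14 and Week 0 joined, -0.18 to 0.15 leaving out), Col5a1 (0.16, mean of probes), Col5a2 (0.058, normexp; -0.35 to 0.0073 leaving out), Col15a1 (0.059, 0.22 and 0.015 with normexp, mean of probes and brightness), Col6a1 (0.010 with brightness, 0.0084 with array weights), Col6a2 (-0.023 to 0.44 leaving out) and Col6a3 (0.37, mean of probes). The trend turned for Col6a3 (0.029, 0.0077 and 0.017 with the mean of probes, brightness and array weights) and, leaving out time points, for Col1a2 (-0.085 to 0.0073), Col3a1 (-0.10 to 0.013), Col6a1 (-0.093 to 0.017), Col6a2 (-0.0074 to 0.029) and Col6a3 (-0.057 to 0.021). With normexp Col5a2 turned for HF75 (0.029) and the dose order (0.0082).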
